A study of Mus musculus with 4 samples.

Results

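The genes described here are the 8 growth factors and receptors of the myeloid lineage Csf1, Il34, Flt3l and Kitl (ligands) and Csf1r, Csf2ra, Csf2rb and Csf3r (receptors), chosen by symbol from the 30406 genes listed for all 4 libraries. CSF1 and IL-34 bind the same receptor, CSF1R, and through it keep tissue macrophages alive. Stromal cells are the usual local source of CSF1. CSF2RA and CSF2RB form the receptor for GM-CSF, and CSF2RB is also the signalling chain for IL-3 and IL-5. CSF3R is the G-CSF receptor of neutrophils, FLT3L supports dendritic cells, and KITL (stem cell factor) supports mast cells and blood progenitors through KIT.

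Single cells came from the popliteal lymphatic vessels and the adjacent superficial saphenous vein of mouse hindlimbs, 3 mice pooled per library, all on a C57BL/6J background. The WT and TNF-Tg libraries were from male mice aged 9 months per the labels, with the TNF-Tg mice carrying a TNF transgene and having chronic inflammatory-erosive arthritis, and both were sorted as DAPI- cells of high scatter. The tdTomato 1 and tdTomato 2 libraries are replicates from male and female Cspg4-Cre+/-, Ai9-tdTomato+/- mice without the TNF transgene, in which Cre driven by Cspg4 switches on the reporter for good in any cell that has expressed Cspg4, whether or not it still does, and were sorted for tdTomato. There is thus 1 library per condition for TNF-Tg and WT, so their difference has no replicate check and no test, and condition cannot be told apart from library. The question the comparison addresses is how growth factor supply by the stromal cells and receptor levels in the phagocytes stood beside the smaller share of resident macrophages in TNF-Tg vessels.

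The libraries held 454 to 5488 cells (10837 in all) with medians of 4932.5 to 12660 UMIs (unique molecular identifiers, each counting 1 captured transcript) per cell. tdTomato 1 stood apart, with 516 of its 1504 cells above 10% mitochondrial UMIs, and it was sorted through a narrower nozzle and sequenced on another instrument. Between 0 and 5 cell barcodes were shared by any pair of libraries. Cells were gated into classes by 102 marker genes, none of them a gene described here, and 70.1% to 84.6% of the cells of a library passed a gate. The names are marker names: the cells called LMC-like (lymphatic muscle type) and VSMC-like (vascular smooth muscle type), the stromal classes, summed to 20007 to 37630 CPM (UMIs of a gene per 1000000 UMIs of the class) over the 6 Pan-stromal markers such as Col1a1 and Pdgfra but to only 3.53 to 40.5 CPM over the 6 Contractile mural markers such as Acta2 and Myh11. A level is the CPM of a class in a library, taken after adding up its cells. The intervals given are 95% intervals of the counts and cover counting error only.

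Resident macrophage-like cells (Lyve1, Cd209f, Folr2) made up 20.7% of WT cells (1137 cells, 19.7% to 21.8%) and 7.55% of TNF-Tg cells (256 cells, 6.68% to 8.49%), against 1.80% and 10.1% in the tdTomato libraries. Among the phagocytes of 5 classes (resident, Ccr2, inflammatory monocyte, patrolling monocyte and Ear2), residents were 62.1% in WT and 20.7% in TNF-Tg. Inflammatory monocyte-like cells were 1.20% of WT and 17.3% of TNF-Tg cells, while Ccr2 macrophage-like cells were 5.58% and 5.75%. Patrolling monocyte-like cells were 0.109% and 5.25%. Ear2 phagocyte-like cells were 5.74% and 0.590% (315 and 20 cells), so a lower share was not particular to the residents and TNF-Tg values of that class rest on few cells. LMC-like cells were 27.3% and 17.6%, and VSMC-like cells 9.15% and 8.88%. By clusters the VSMC-like class was larger and uneven, with 735 of 5488 WT and 593 of 3391 TNF-Tg cells, so the gap between gate and clusters was wider in TNF-Tg, and the order of the 2 libraries in this share depends on how the class is drawn. The 4 libraries differ in their sorts, so the tdTomato shares are values beside these and not a control for them.

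Csf1 lies on the minus strand of chromosome 3 (107741048 to 107760469, GRCm38, the build the authors call mm10). The 250 bases before the Csf1 start (chr3:107760470-107760719, minus strand, from RefSeq on GRCm38.p6) are shown because Csf1 carries the stromal supply described below. The capitals mark a match, on the opposite strand, to the NF-kB type motif (GGG and TTTCC with any 2 bases between), 154 to 145 bases before the start:
Csf1: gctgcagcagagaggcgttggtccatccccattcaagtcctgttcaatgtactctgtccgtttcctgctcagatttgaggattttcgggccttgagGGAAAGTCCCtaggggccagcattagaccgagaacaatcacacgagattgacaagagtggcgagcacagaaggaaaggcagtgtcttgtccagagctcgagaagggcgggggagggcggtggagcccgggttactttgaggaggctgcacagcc
That motif, searched on both strands, is held by 464 of 32851 promoter windows of the same length (1.41%) and by none of the other 4 members with a window (Csf2ra, Csf3r, Flt3l and Kitl). The PU.1 type motif AGAGGAAG is held by 1204 windows (3.67%), Csf2ra and Csf3r among them and Csf1, Flt3l and Kitl not. A match is a description of letters and not a bound site.

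Csf1, which encodes the main survival factor of macrophages, was a transcript of the stromal classes. In LMC-like cells it stood at 386 CPM in tdTomato 1, 272 in tdTomato 2, 367 in WT and 302 in TNF-Tg. In VSMC-like cells it stood at 239, 223, 265 and 174 CPM in the same order. In resident macrophage-like cells it stood at 20.9, 6.06, 3.03 and 7.78 CPM, from 2, 1, 42 and 23 UMIs. The stromal levels lay above every macrophage and monocyte level in each library. Over the libraries, Csf1 was higher in the stromal classes than in resident macrophage-like cells by 5.89 on the log2 scale (SE 0.39, adjusted p = 1.99e-19, edgeR quasi-likelihood test), and LMC-like and VSMC-like cells were not told apart (log2 difference 0.47, SE 0.26, adjusted p = 0.337). Of all Csf1 UMIs in a library, the stromal classes held 90.4% in tdTomato 1, 80.2% in tdTomato 2, 88.0% in WT and 77.0% in TNF-Tg, and the 5 phagocyte classes 0.0709% to 1.57%. Ungated cells held 7.35%, 15.1%, 9.59% and 16.8% in the same order.

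**Figure D1:**
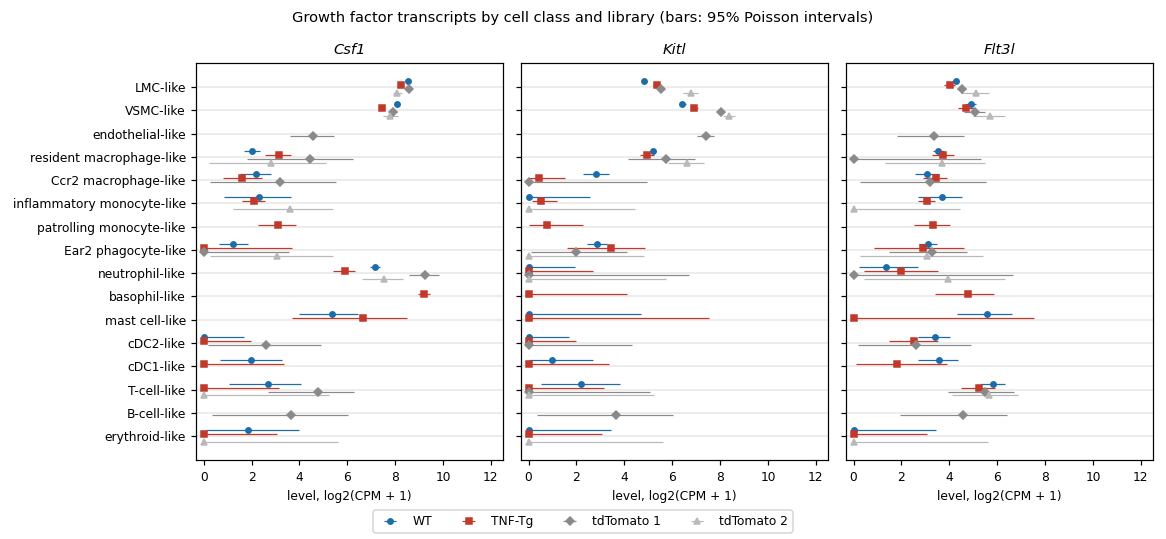
Level of Csf1, Kitl and Flt3l as log2(CPM + 1) on the horizontal axis, by cell class and library, for classes of at least 10 cells; bars are 95% Poisson intervals. Csf1 is high in LMC-like, VSMC-like, neutrophil-like and basophil-like cells, and Kitl in VSMC-like, LMC-like, endothelial-like and resident macrophage-like cells.

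When each cell was thinned to 3000 UMIs, Csf1 was detected in 64.9% of WT and 61.3% of TNF-Tg LMC-like cells (28 and 7 shallower cells left out) and in 49.9% and 38.7% of VSMC-like cells (71 and 40 left out). T-cell-like cells, taken as background, had it in 0 of 58 thinned WT and 0 of 67 thinned TNF-Tg cells, and before thinning in 2 of 60 and 0 of 68, at median depths of 8402 and 6377 UMIs. Resident macrophage-like cells had it in 1.12% of WT cells (0.580% to 1.95%) and 2.09% of TNF-Tg cells (0.683% to 4.81%), and before thinning in 3.52% of both. That is close to the WT T-cell-like share, which rests on 2 cells, and above the TNF-Tg one. The cDC2-like cells of WT and TNF-Tg had 0 Csf1 UMIs. Whether the low macrophage values are background is thus not settled. Without thinning, the LMC-like shares were 95.9% and 94.0%, at median depths of 16099 and 12463.5 UMIs.

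For Csf1 in LMC-like cells the log2 ratio of TNF-Tg over WT was -0.28 (-0.34 to -0.22), with no test, and the TNF-Tg level lay within the range of the other 3 libraries. In VSMC-like cells the log2 ratio was -0.60 (-0.75 to -0.46) and the TNF-Tg level lay below all of the other 3, as for 38.9% of all genes there. The median gene of the VSMC-like class had a log2 ratio of -0.23, against -0.04 in the LMC-like class. The replicate pair tdTomato 1 over tdTomato 2 gave log2 ratios of 0.50 in LMC-like cells and 0.10 in VSMC-like cells. Without cells that carry a pan-macrophage or pan-leukocyte UMI the ratios were -0.21 and -0.55, the VSMC-like one then under 1.5-fold. That left 494 of 1500 WT and 401 of 598 TNF-Tg LMC-like cells, and 243 of 502 and 231 of 301 VSMC-like cells. The filter thus kept unequal parts of WT and TNF-Tg, here and wherever it is used below.

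Among the gated classes, granulocytes were the other holders of Csf1, with fewer of its UMIs than the ungated cells. Neutrophil-like cells had 605 CPM in tdTomato 1, 185 in tdTomato 2, 142 in WT and 58.2 in TNF-Tg, from 22, 13, 186 and 40 UMIs, and the TNF-Tg level was the lowest of the 4, as for 20.5% of all genes there. The log2 ratio of TNF-Tg over WT was -1.29 (-1.82 to -0.79), and 1 UMI or more was seen in 30.1% of WT and 12.4% of TNF-Tg cells. The 55 basophil-like cells of TNF-Tg had 586 CPM. WT had 2 such cells, too few for a level. Neutrophil-like cells exceeded resident macrophage-like cells in Csf1 by 5.45 on the log2 scale (SE 0.42, adjusted p = 7.24e-16, edgeR).

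Il34, the other ligand of CSF1R, was close to absent. A library held 21 UMIs of it in tdTomato 1, 1 in tdTomato 2, 7 in WT and 6 in TNF-Tg, of which 12, 1, 6 and 4 were in LMC-like cells. No UMI was seen in any macrophage, monocyte or lymphocyte class of 10 or more cells. It failed the filter on low counts and entered no test, so a difference in Il34 was not detectable at this depth.

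Kitl, the ligand of the mast cell receptor KIT, was the ligand that separated the stromal classes. It stood at 45.5, 110, 27.4 and 39.9 CPM in LMC-like cells (tdTomato 1, tdTomato 2, WT, TNF-Tg) and at 259, 332, 85.0 and 121 CPM in VSMC-like cells, higher in VSMC-like cells in each library. The log2 difference of LMC-like over VSMC-like was -1.96 (SE 0.28, adjusted p = 2.30e-06, edgeR). Kitl was also a transcript of resident macrophage-like cells, at 52.2, 97.0, 35.3 and 29.8 CPM, and of the endothelial-like cells of tdTomato 1, at 168 CPM. Ccr2 macrophage-like cells had 6.04 CPM in WT and 0.336 in TNF-Tg, and inflammatory monocyte-like cells 0 and 0.446. Against resident macrophage-like cells, Kitl was lower in Ccr2 macrophage-like cells by a log2 difference of -3.25 (SE 0.48, adjusted p = 1.17e-05) and in inflammatory monocyte-like cells by -6.01 (SE 0.71, adjusted p = 3.06e-08). It was the only member called between the macrophage classes. TNF-Tg over WT gave log2 ratios of 0.54 (0.35 to 0.73) in LMC-like and 0.51 (0.30 to 0.71) in VSMC-like cells, both under 1.5-fold and within the range of the other 3 libraries. Both were past 1.5-fold as a mean over cells (0.66 and 0.65) and without stromal cells that carry a pan-macrophage or pan-leukocyte UMI (0.83 and 0.67), and over all alternatives they ran from 0.31 to 0.83 in LMC-like and from 0.17 to 0.92 in VSMC-like cells.

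Flt3l, the growth factor of dendritic cells, was spread over stromal cells, T cells and, in WT and TNF-Tg, phagocytes. The stromal classes held 56.3% of its UMIs in WT and 43.4% in TNF-Tg. The 5 phagocyte classes held 22.0% and 28.4%, and T-cell-like cells 2.96% and 3.71%. By level, Flt3l stood at 21.9, 33.4, 18.1 and 15.1 CPM in LMC-like cells, at 32.7, 50.6, 29.0 and 24.9 CPM in VSMC-like cells and at 44.0, 50.2, 55.8 and 36.6 CPM in T-cell-like cells. TNF-Tg was the lowest library in all 3 classes, as for 30%, 38.9% and 28.5% of all genes there, and the intervals of TNF-Tg over WT included 0 in each. It was the single member with 20 UMIs in T-cell-like cells and was over 1.5-fold lower in TNF-Tg (log2 ratio -0.61, -1.55 to 0.29), where 23.4% of all genes were lower and 6.63% higher. The stromal classes exceeded resident macrophage-like cells by 1.39 on the log2 scale (SE 0.27, adjusted p = 2.03e-05, edgeR), and LMC-like over VSMC-like did not pass (-0.73, SE 0.24, adjusted p = 0.0441, threshold 0.01).

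Counted over the whole set, 2 of the 7 members tested were called lower in LMC-like than in VSMC-like cells (Kitl and Csf2rb) and 0 higher, where 3.66% and 3.5% of all 11512 genes tested were. Between the stromal classes and resident macrophage-like cells all 7 tested members were called, 3 ligands higher (Csf1, Flt3l and Kitl) against 23.6% of all genes and 4 receptors lower against 19.1%. The Kitl call there (1.24, SE 0.29, adjusted p = 0.000458) is lost with DESeq2 (adjusted p = 0.178). Between Ccr2 and resident macrophage-like cells 1 member was lower (Kitl) against 3.02% of genes and 0 higher against 2.07%. For inflammatory monocyte-like over resident macrophage-like cells 1 member was higher (Csf2ra) and 1 lower (Kitl), against 10.2% and 11.3% of genes. For neutrophil-like over resident macrophage-like cells 4 were higher (Csf1, Csf2ra, Csf2rb and Csf3r) and 2 lower (Csf1r and Kitl), against 17.7% and 23.0%. These classes were gated on markers that exclude the members, and the libraries are the replicates of this test.

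Csf1r, the CSF1 and IL-34 receptor, was a transcript of the mononuclear phagocytes. In resident macrophage-like cells it stood at 1253 CPM in tdTomato 1, 1431 in tdTomato 2, 1288 in WT and 758 in TNF-Tg. In Ccr2 macrophage-like cells it stood at 979 CPM in tdTomato 1, 1061 in WT and 361 in TNF-Tg (tdTomato 2 had 6 such cells). In both classes the TNF-Tg level was the lowest measured, and its interval (727 to 790 CPM in resident and 340 to 384 in Ccr2 macrophage-like cells) did not meet those of the other libraries. Inflammatory monocyte-like cells had 437 CPM in tdTomato 2, 316 in WT and 435 in TNF-Tg, and the 178 patrolling monocyte-like cells of TNF-Tg had 955. Ear2 phagocyte-like cells had 250, 262, 222 and 270 CPM, with intervals that overlapped in every pair of libraries. Over all libraries the difference in Csf1r did not pass the threshold of 0.01 for Ccr2 over resident macrophage-like cells (log2 difference -0.48, SE 0.67, adjusted p = 0.774, edgeR) or for inflammatory monocyte-like over resident macrophage-like cells (-1.59, SE 0.69, adjusted p = 0.0835). The second passed with DESeq2 (-2.69, adjusted p = 0.0051) and with no filter on low counts (-1.54, adjusted p = 8.99e-05).

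**Figure D2:**
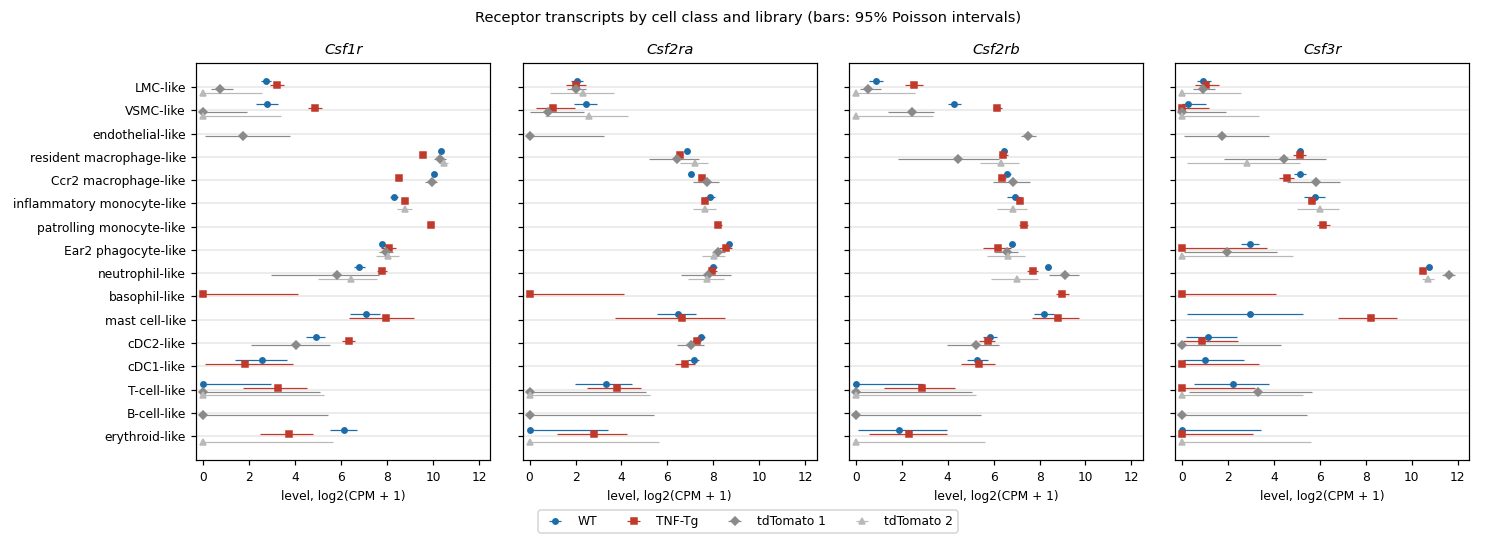
Level of the 4 receptor genes as log2(CPM + 1) on the horizontal axis, by cell class and library, for classes of at least 10 cells; bars are 95% Poisson intervals. Csf1r is highest in resident and Ccr2 macrophage-like cells in WT (circles) and in patrolling monocyte-like and resident macrophage-like cells in TNF-Tg (squares). TNF-Tg lies left of WT in resident and Ccr2 macrophage-like cells, and its Ccr2 class lies left of its inflammatory monocyte-like class. Csf3r is highest in neutrophil-like cells.

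The log2 ratio of TNF-Tg over WT for Csf1r was -0.76 (-0.83 to -0.70) in resident macrophage-like cells, and the TNF-Tg level lay below all of the other 3 libraries, as for 16.8% of all genes in that class. It was -0.48 as a mean over cells and -0.53 after thinning, both under 1.5-fold. Of the 7 members with at least 20 UMIs there, 1 was at least 1.5-fold lower (Csf1r) and 1 at least 1.5-fold higher (Csf1, from 65 UMIs; log2 ratio 1.36, but -0.33 without predicted doublets and -0.01 by clusters), where 13.5% and 16.6% of all genes were. In Ccr2 macrophage-like cells the Csf1r ratio was -1.55 (-1.65 to -1.46). There 3 of 6 members were lower (Csf1r, Csf3r and Kitl) and 0 higher, against 25.0% and 17.4% of all genes. Of these, Csf3r (-0.61) turned to 0.078 after thinning and Kitl rested on 1 against 22 UMIs. The replicate pair tdTomato 1 over tdTomato 2 differed in Csf1r by -0.19 (-0.52 to 0.13) in resident macrophage-like cells.

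The make-up of these classes moved with Csf1r. In the resident class the Resident macrophage markers summed to 12113 CPM in WT and 10024 in TNF-Tg, the Pan-macrophage markers to 24943 and 24526, and the Neutrophil markers to 93.5 and 668 CPM. In the Ccr2 class the Ccr2 macrophage markers summed to 10641 CPM in WT and 4037 in TNF-Tg and the Pan-macrophage markers to 17282 and 7778. Among resident macrophage-like cells with a marker score of 0.7 to 1, where the score runs from 0 to 1, Csf1r stood at 1313 CPM in 750 WT cells and 863 CPM in 149 TNF-Tg cells. Among Ccr2 macrophage-like cells with a score of 0.5 to 0.7 it stood at 1088 CPM in 206 WT cells and 400.2 CPM in 83 TNF-Tg cells, and with a score of 0.3 to 0.5 at 743 CPM in 45 and 331 CPM in 108. TNF-Tg thus lay below WT within these score ranges of both classes. The part of class make-up in the ratios was not tested.

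After thinning to 3000 UMIs per cell, 2.52% of WT resident macrophage-like cells (27 of 1072) and 12.1% of TNF-Tg ones (29 of 239) had no Csf1r UMI. In the Ccr2 class these shares were 9.15% and 29.5%. In the TNF-Tg resident class 3 UMIs was the most frequent count (22.6% of cells), as in WT (19.3%), while in the Ccr2 class it was 1 UMI (41.1%) against 2 in WT (19.7%). Before thinning, 97.3% of WT and 98.0% of TNF-Tg resident macrophage-like cells had a Csf1r UMI, against 0 of 60 WT and 4.41% of TNF-Tg T-cell-like cells.

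**Figure D3:**
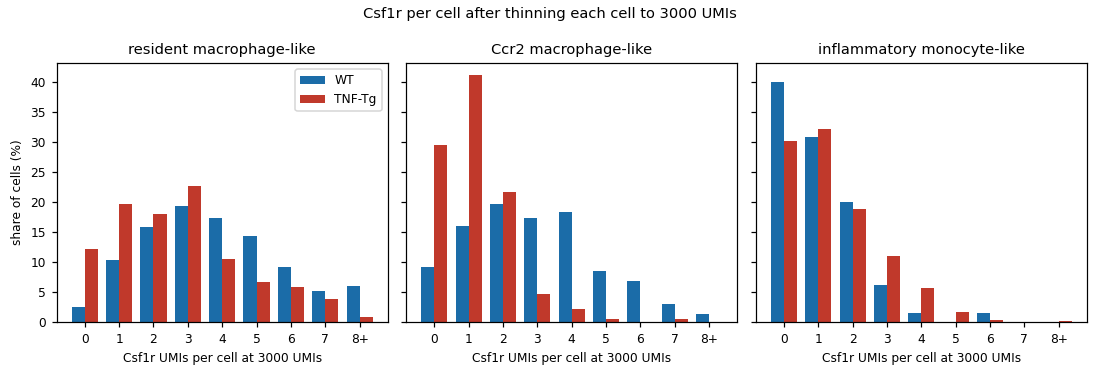
Share of cells (vertical axis, percent) by the number of Csf1r UMIs per cell after thinning each cell to 3000 UMIs (horizontal axis), in WT and TNF-Tg. In resident and Ccr2 macrophage-like cells the TNF-Tg bars sit to the left of the WT bars, with 12.1% against 2.52% and 29.5% against 9.15% of cells at 0.

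Neutrophil-like and cDC2-like cells had ratios of the other sign. Csf1r in neutrophil-like cells stood at 55.0, 85.3, 110 and 220 CPM in tdTomato 1, tdTomato 2, WT and TNF-Tg, the TNF-Tg level being the highest, as for 14.9% of all genes there, with a log2 ratio over WT of 1.01 (0.67 to 1.35). In cDC2-like cells, the dendritic cells that present to helper T cells, it stood at 15.5 CPM in tdTomato 1, 29.0 in WT and 79.6 in TNF-Tg (log2 ratio 1.46, 0.95 to 1.98; 0.62 after thinning). In cDC1-like cells it was near 0, at 4.92 CPM in WT and 2.53 in TNF-Tg from 5 and 1 UMIs. In the inflammatory monocyte-like class the ratio was 0.46 (0.27 to 0.66), with the TNF-Tg level next to that of tdTomato 2. Of the members with at least 20 UMIs, 1 of 5 was higher and 2 of 5 lower in neutrophil-like cells against 12.3% and 23.9% of all genes. In cDC2-like cells 1 of 4 was higher and 1 lower against 18.4% and 21.2%, and in inflammatory monocyte-like cells 0 of 6 was higher and 1 lower against 16.6% and 16.5%. In Ear2 phagocyte-like cells 1 of 6 was higher and 2 lower against 11.7% and 31.4%. In cDC1-like cells 0 of 2 moved past 1.5-fold (19.9% and 23.5% of all genes), in mast cell-like cells 2 of 2 were higher from 25 and 53 UMIs (22.7% and 30.2%), and in erythroid-like cells 1 of 1 was lower from 32 UMIs (25.9% and 33.6%). These small classes did not keep their direction: Csf2rb in mast cell-like cells (0.61) turned to -0.39 by clusters and -0.23 with TMM, and Csf1r in erythroid-like cells (-2.50) to 0.49 under the stricter gate and 0.72 after thinning. Neutrophil-like cells carried less Csf1r than resident macrophage-like cells in every library (log2 difference -2.56, SE 0.68, adjusted p = 0.0027, edgeR), a call that is lost without tdTomato 2, without WT or without the library block (adjusted p up to 0.0422).

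Csf2ra and Csf2rb, the chains of the GM-CSF receptor, were spread more evenly over the phagocytes. Csf2ra stood highest in Ear2 phagocyte-like cells, at 297, 262, 408 and 371 CPM in tdTomato 1, tdTomato 2, WT and TNF-Tg. The 178 patrolling monocyte-like cells of TNF-Tg had 297 CPM (270 to 327), an interval that overlapped that of the Ear2 cells there (306 to 445). Next came neutrophil-like cells with 220, 213, 254 and 245 CPM and inflammatory monocyte-like cells with 198 in tdTomato 2, 232 in WT and 196 in TNF-Tg. Resident macrophage-like cells had 83.5, 145, 113 and 91.3 CPM. The intervals of neutrophil-like and inflammatory monocyte-like cells overlapped in tdTomato 2 and WT, so their order is not set there, and did not meet in TNF-Tg. Against resident macrophage-like cells Csf2ra was higher in inflammatory monocyte-like cells by 1.15 (SE 0.31, adjusted p = 0.0028) and in neutrophil-like cells by 1.90 (SE 0.30, adjusted p = 5.93e-07, edgeR). The monocyte call is lost without WT, without TNF-Tg, without the library block, under a stricter gate and with DESeq2 (adjusted p up to 0.389). Between TNF-Tg and WT, Csf2ra stayed under 1.5-fold in resident, Ccr2, monocyte, Ear2, neutrophil, cDC2 and cDC1 cells, with log2 ratios from -0.37 in cDC1-like to 0.50 in Ccr2 macrophage-like cells.

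Csf2rb stood at 550, 128, 331 and 207 CPM in neutrophil-like cells, at 511 CPM in the basophil-like cells of TNF-Tg and at 182 CPM in the endothelial-like cells of tdTomato 1. Resident macrophage-like cells had 20.9, 78.8, 86.3 and 85.2 CPM, with a log2 ratio of TNF-Tg over WT of -0.02 (-0.22 to 0.18). In neutrophil-like cells that ratio was -0.68 (-0.96 to -0.40), within the range set by the tdTomato libraries. Neutrophil-like over resident macrophage-like cells gave 2.64 (SE 0.55, adjusted p = 0.000245, edgeR), a call lost without WT (adjusted p = 0.0373). Reads of Csf2rb and of its near-identical neighbour Csf2rb2 can be split between the genes or lost, so their values are uncertain.

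A small group of VSMC-like cells also carried Csf2rb. The class stood at 4.46 CPM in tdTomato 1, 0 in tdTomato 2 (3 UMIs would be 7.59 CPM), 18.6 in WT and 70.2 in TNF-Tg, so TNF-Tg lay above all of the other 3, as for 21.6% of all genes there. The log2 ratio was 1.92 (1.56 to 2.28). Csf2rb was seen in 41 of 301 TNF-Tg and 30 of 502 WT cells (13.6% and 5.98%). Most of the transcripts sat in few cells: 28 TNF-Tg cells with 2 or more UMIs held 193 of the 206 UMIs (93.7%), up to 28 in 1 cell, and 13 WT cells held 78 of 95. Those 28 cells had 23651 CPM of pan-stromal markers, 17.8 CPM of pan-macrophage markers and 0 of endothelial markers, against 24656, 47.9 and 2.92 CPM in the VSMC-like cells of TNF-Tg without Csf2rb. Their pan-leukocyte markers stood at 53.4 CPM, against 21.2 in the cells without Csf2rb, so macrophage and endothelial markers were not higher in them while pan-leukocyte markers were higher. Thinned to 3000 UMIs, 8.81% of TNF-Tg and 2.32% of WT VSMC-like cells had a Csf2rb UMI, against 0 of 67 and 0 of 58 T-cell-like cells.

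LMC-like cells carried far less Csf2rb, at 0.441, 0, 0.821 and 4.79 CPM, and the log2 difference of LMC-like over VSMC-like was -4.08 (SE 0.62, adjusted p = 1.76e-05, edgeR; adjusted p = 0.0125 without WT). In LMC-like cells 1 of 7 members with at least 20 UMIs was at least 1.5-fold higher in TNF-Tg (Csf2rb, 40 against 20 UMIs, log2 ratio 2.54) and 0 lower, where 13.1% and 15.7% of all genes were. The TNF-Tg level lay above all of the other 3, as for 26.0% of all genes. The ratio was 1.02 under a stricter gate, 1.06 by clusters and 0.64 after thinning, and the 6 TNF-Tg cells with 2 or more UMIs held 28 of the 40 and had 411 CPM of pan-leukocyte markers against 29.7 CPM in cells without Csf2rb. In VSMC-like cells 2 of 6 were higher (Csf1r and Csf2rb) and 2 lower (Csf1 and Csf2ra, the latter from 3 UMIs against 23), where 11.4% and 30.5% of all genes were.

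**Figure D4:**
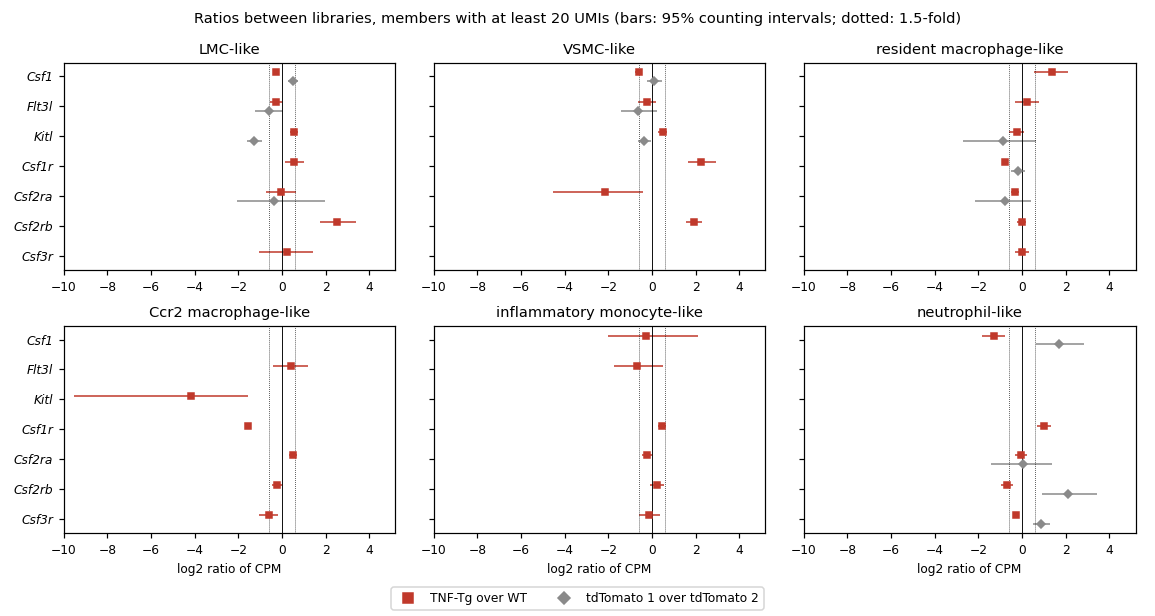
Log2 ratio of CPM (horizontal axis) for each gene with at least 20 UMIs, TNF-Tg over WT (squares) and tdTomato 1 over tdTomato 2 (diamonds), in 6 cell classes; bars are 95% counting intervals and dotted lines 1.5-fold. Csf1r lies left of the lower dotted line in resident and Ccr2 macrophage-like cells and right of the upper one in VSMC-like and neutrophil-like cells, and Csf2rb right of it in both stromal classes.

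Csf1r in VSMC-like cells stood at 0, 0, 5.88 and 28.3 CPM, with a TNF-Tg over WT log2 ratio of 2.27 (1.65 to 2.92). Unlike Csf2rb, it sat in part with macrophage genes: the 12 TNF-Tg cells with 2 or more Csf1r UMIs had 376 CPM of pan-macrophage markers against 20.3 CPM in cells without Csf1r. The 41 cells with 1 UMI had 27.1 CPM. Per 1000 pan-macrophage UMIs there were 654 Csf1r UMIs in the VSMC-like and 30.9 in the resident macrophage-like cells of TNF-Tg, and 72.6 and 51.7 in WT, so in TNF-Tg the VSMC-like value lay above the resident one. It lay below those of inflammatory monocyte-like (3770) and patrolling monocyte-like cells (18413) there. Without stromal cells that carry a pan-macrophage or pan-leukocyte UMI the log2 ratio was 1.91 (0.97 to 2.96).

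Csf3r, the G-CSF receptor, was a transcript of neutrophil-like cells at 3109, 1677, 1724 and 1443 CPM in tdTomato 1, tdTomato 2, WT and TNF-Tg. TNF-Tg was the lowest, as for 20.5% of all genes there, with a log2 ratio over WT of -0.26 (-0.37 to -0.15). Neutrophil-like cells exceeded resident macrophage-like cells by 6.60 on the log2 scale (SE 0.39, adjusted p = 3.75e-20, edgeR). Inflammatory monocyte-like cells had 53.8 CPM in WT and 48.9 in TNF-Tg, and resident macrophage-like cells 34.2 in both. Neutrophil-like cells held 61.1%, 88.1%, 69.5% and 56.3% of all Csf3r UMIs of a library.

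Set against the number of macrophages, the stromal Csf1 transcripts gave different answers by denominator. The stromal classes held 9.04 Csf1 UMIs per resident macrophage-like cell in WT and 11.9 in TNF-Tg, 1.31-fold more, as there were 1.76 and 3.51 stromal cells per resident macrophage. Per phagocyte of the 5 classes there were 5.62 Csf1 UMIs in WT and 2.46 in TNF-Tg, or 2.29-fold fewer. Per Csf1r UMI in those phagocytes the values were 0.440 and 0.394. Per stromal cell there were 5.14 and 3.37. The tdTomato libraries, enriched for stromal cells by their sort, had 142 and 6.35 Csf1 UMIs per resident macrophage, a spread that is far wider than the gap between WT and TNF-Tg. Stromal Kitl per resident macrophage was 0.968 in WT and 2.68 in TNF-Tg. These counts are transcripts of captured cells, not scaled for depth, and depend on the sort and on depth. LMC-like cells had median depths of 13609.5, 5990, 16099 and 12463.5 UMIs in tdTomato 1, tdTomato 2, WT and TNF-Tg. In VSMC-like cells these were 10258, 4839, 10338.5 and 9367 UMIs.

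The receptor side shifted between classes while its total share in phagocytes stayed close. The 5 phagocyte classes held 82.1%, 93.2%, 81.5% and 79.3% of the Csf1r UMIs of tdTomato 1, tdTomato 2, WT and TNF-Tg. Resident macrophage-like cells held 62.4% of them in WT and 23.0% in TNF-Tg. Inflammatory monocyte-like cells held 0.841% in WT and 30.1% in TNF-Tg, and patrolling monocyte-like cells 0.157% and 14.2%. In TNF-Tg the monocyte classes thus held more Csf1r UMIs than the resident class, as they also held more cells. Of the Kitl UMIs, resident macrophage-like cells held 25.1% in WT and 8.64% in TNF-Tg, and the stromal classes 56.5% and 67.5%.

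**Figure D5:**
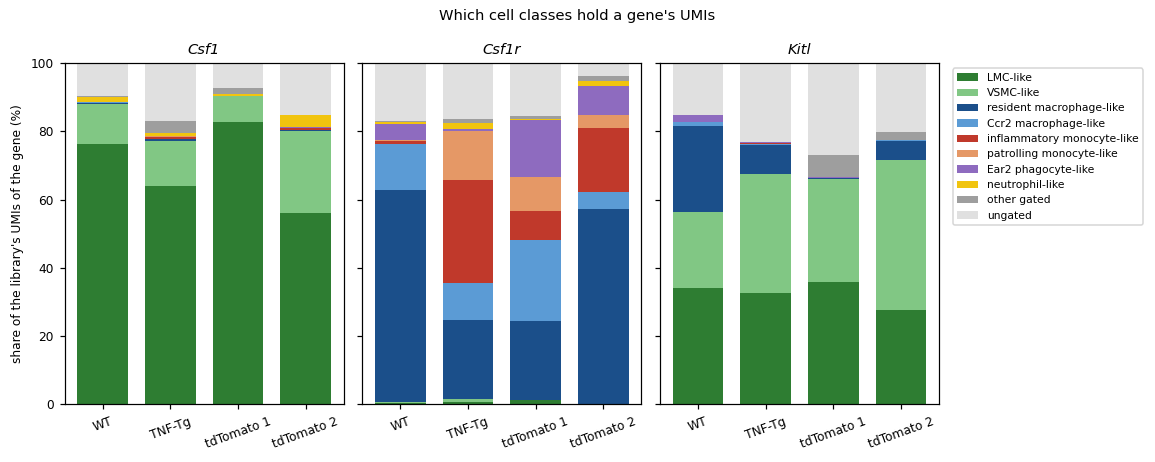
Share of the UMIs of Csf1, Csf1r and Kitl in each library (vertical axis, percent) held by each cell class; bars add to 100% with ungated cells in light grey. Csf1 is held mostly by the stromal classes (green) in all 4 libraries, and Csf1r mostly by the resident class (dark blue) in WT, with the monocyte classes (red and orange) holding more of it than the resident class in TNF-Tg.

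Other genes of these pathways were taken as lists. Of 10 other ligands, 6 reached 20 UMIs in LMC-like and 4 in VSMC-like cells, and Il6 and Cxcl12 were at least 1.5-fold higher and Lif lower in TNF-Tg in both. Of these, 2 were higher and 1 lower in LMC-like cells, and 2 higher and 2 lower in VSMC-like cells. All genes gave 13.1% higher and 15.7% lower in LMC-like and 11.4% and 30.5% in VSMC-like cells. Cxcl12, which holds CXCR4-bearing leukocytes, stood at 269, 367, 136 and 691 CPM in LMC-like and 1105, 990, 896 and 1459 CPM in VSMC-like cells. TNF-Tg lay above all of the other 3 in both classes, as for 26.0% and 21.6% of all genes there. Il6 stood at 95.7, 4.01, 2.63 and 20.4 CPM in LMC-like cells, TNF-Tg lying within the range of the tdTomato libraries. Csf2, the GM-CSF gene, was seen in T-cell-like cells at 17.6, 20.1, 36.0 and 38.8 CPM. The tdTomato values lie under the 26.4 and 30.1 CPM that 3 UMIs would give in that class of tdTomato 1 and tdTomato 2. The median log2 ratio of the ligand list was -0.20 in LMC-like and 0.05 in VSMC-like cells, against -0.04 and -0.23 over all genes.

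Of 10 other receptors, Csf2rb2 was higher and Il6ra lower in TNF-Tg in both stromal classes. Of 6 with enough UMIs in LMC-like cells 3 were higher and 2 lower, and of 5 in VSMC-like cells 1 and 2. All genes gave 13.1% higher and 15.7% lower in LMC-like and 11.4% and 30.5% in VSMC-like cells. Csf2rb2 rested on 34 against 4 UMIs in LMC-like and 17 against 7 in VSMC-like cells. Il6ra was also lower in both macrophage classes and in cDC2-like and Ear2 phagocyte-like cells. Flt3 was found in the dendritic classes and Kit in mast cell-like cells, at 3055 CPM in WT and 2845 in TNF-Tg. Neither was confined to them. Against resident macrophage-like cells, Flt3 was higher in inflammatory monocyte-like cells (log2 difference 3.95, SE 0.44, adjusted p = 4.80e-10, edgeR). Kit was higher in neutrophil-like cells (2.71, SE 0.68, adjusted p = 0.00118, edgeR). Of the 6 enzymes that shed cytokines and receptors from the cell surface, 0 were higher and 2 of 5 lower in LMC-like cells, and 0 higher and 3 of 4 lower in VSMC-like cells, where 15.7% and 30.5% of all genes were lower. Mmp14 and Adam17 were lower in both. Mmp14 stood at 442, 441, 369 and 229 CPM in LMC-like and 409, 344, 304 and 112 CPM in VSMC-like cells, TNF-Tg lowest in each. The list's median log2 ratio was -0.42 in LMC-like and -0.98 in VSMC-like cells, against -0.04 and -0.23 over all genes. Mmp14 was higher in TNF-Tg in both macrophage classes, at 15.2 against 1.44 CPM in the resident and 14.1 against 3.02 in the Ccr2 class. In tdTomato 1 the values were 20.9 and 88.2 CPM. The first lies under the 31.3 CPM that 3 UMIs would give in that class and library, so it sets no bound.

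Of 18 signal and feedback genes, all with enough UMIs, 7 were higher and 3 lower in LMC-like cells, and 1 of 14 was higher and 4 lower in VSMC-like cells. All genes gave 13.1% higher and 15.7% lower in LMC-like and 11.4% and 30.5% in VSMC-like cells, so the 4 lower lie near the background. The 7 were Stat5a, Socs1, Socs3, Cish and the leukocyte genes Ptpn6, Dok3 and Tyrobp, and the leukocyte factors Spi1 and Irf8 were also higher in LMC-like cells. The 3 lower were Cblb and the leukocyte genes Inpp5d and Dok2. These leukocyte genes also differed between phagocytes. For inflammatory monocyte-like over resident macrophage-like cells the log2 difference was 2.01 for Tyrobp, 1.75 for Ptpn6, 1.49 for Spi1 and 1.28 for Dok3. It was -2.24 for Dok2, and Irf8 (0.62) and Inpp5d (-0.80) did not pass the threshold of 0.01. The part of leukocyte transcripts from other cells in the LMC-like values was not tested. Socs1, a brake on JAK signalling, was higher and Cblb lower in both stromal classes. Cblb was also lower in both macrophage classes and in inflammatory monocyte-like and Ear2 phagocyte-like cells. Of 12 myeloid transcription factors, 0 were higher and 3 lower in resident macrophage-like cells, Cebpa and Klf4 among them, and 0 were higher and 5 lower in Ccr2 macrophage-like cells, again with Cebpa and Klf4 among them, where 13.5% and 25.0% of all genes were lower. Cebpa, which drives the myeloid fate, stood at 94.0, 97.0, 105 and 44.6 CPM in resident macrophage-like cells. Its TNF-Tg level lay below all of the other 3, as for 16.8% of all genes there. The list's median log2 ratio was -0.27 in resident and -0.54 in Ccr2 macrophage-like cells, against 0.05 and -0.09 over all genes. Lower factors were not particular to macrophages. In VSMC-like cells 6 of 11 were lower and 0 higher (median -0.75), where 30.5% of all genes were lower. In neutrophil-like cells 6 of 12 were lower and 2 higher, and in Ear2 phagocyte-like cells 6 and 0. There 23.9% and 31.4% of all genes were lower. LMC-like cells had 3 lower and 3 higher. Klf4 was lower in each of these classes, and Cebpa in the neutrophil-like and Ear2 classes.

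Likeness of pattern was measured by Pearson's correlation of log2(CPM + 1) over 36 sums of class and library with at least 20 cells, among 11387 genes. The sums share libraries and class gates, so the values are descriptions. The genes most like Csf1 were Bmpr1a (r = 0.853), Vegfa (0.807), Gsn (0.798), Ndst1 (0.787) and Amotl2 (0.786). For Csf1r they were Clec4a1 (0.916), Gm21188 (0.877), Ptafr (0.869), Lyz2 (0.868) and Clec4a3 (0.862), and for Csf3r Trem1 (0.892), Vnn3 (0.883), Arg2 (0.872), Trem3 (0.862) and Wfdc21 (0.853). None is a gate marker. For Il34, whose counts are near 0, Kcnn3 (0.905) led, and the correlation is no finding.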

How the data were processed

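Per the submitters' processing notes and the file headers, the authors aligned Chromium 3′ libraries to mm10 with Cell Ranger (notes 3.1 and 3.1.0; matrix headers 3.1.0 for tdTomato 1 and 6.0.1 for the other libraries) and analysed them with Seurat 4.0.3. The values the authors deposited are filtered matrices of raw UMI counts per gene and cell, not normalized. No cell was removed here. Scrublet in scanpy 1.11.5 marked 4, 1, 138 and 72 cells of tdTomato 1, tdTomato 2, WT and TNF-Tg as doublets, which for tdTomato 1 and 2 is too few to judge, and they were kept.

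Cells were scored from 0 to 1 on 17 marker lists (102 genes) and gated at a score of 0.3 with a lead of 0.1, and cells above 0.3 in an unrelated class were left ungated. A stricter gate used 0.4 and 0.2. UMIs were summed per class and library and scaled to CPM with 95% Poisson intervals, and ratios got exact conditional binomial intervals. A ratio was read at 1.5-fold with at least 20 UMIs. Shares have exact Clopper-Pearson intervals. Thinning used 3000 UMIs per cell.

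Classes were compared with edgeR 4.0.16 (quasi-likelihood, TMM, filterByExpr, library as a block; R 4.3.3) over 44 sums of 16 classes with at least 10 cells, 11512 genes, Benjamini-Hochberg adjusted over all genes, threshold 0.01. The block is the library that classes share. With that block, p-values measure the scatter of the sums around class and library effects, pooled over the 16 classes. That scatter also holds any differences by class between WT, TNF-Tg and the tdTomato sort. On simulated data for LMC-like over VSMC-like (9931 genes, 50 changed per size), 13, 39, 46 and 43 genes changed by a log2 of 1, 2, 3 and 4 were recovered, with 0 false calls. The simulated classes shared their gene means apart from the changed genes, with a common dispersion and no library effect. The real sums are unlike that, so the simulation does not measure false calls in them.

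All 8 members are reported. Genes of pathway lists are named when past 1.5-fold the same way in both stromal or both macrophage classes, at most 6 per list, and a few by their known role were named after their values were seen. A gene that met this rule is not reported here. The members and lists were chosen with earlier results of these data known. Alternatives were DESeq2 1.42.0, no filter on low counts, each library left out, no block, the stricter gate, removed doublets, removed low-quality cells (over 10% mitochondrial UMIs or under 500 genes), Seurat 5.3.0 clusters, TMM scaling, means over cells and thinning, and, chosen after seeing the data, stromal cells without leukocyte UMIs. Gene positions are from GENCODE on GRCm38 and promoters from RefSeq on GRCm38.p6. Python 3.11.15, numpy 2.4.6, pandas 2.3.3, scipy 1.17.1 and matplotlib 3.10.9 were used.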

Additional observations from a re-analysis of the deposited data

Results flagged for a closer look

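Some members moved in opposite directions between classes under the same comparison, TNF-Tg over WT, with counting intervals that do not include 0. With 1 library per condition these differences between classes were not tested. For Csf1 the log2 ratio was -0.60 in VSMC-like and -1.29 in neutrophil-like cells and 1.36 in resident macrophage-like cells. The last rests on 65 UMIs, at a level that is not settled to be above background. It turned to -0.33 without predicted doublets and -0.011 by clusters, so the opposite directions of Csf1 depend on the processing. For Csf1r it was -0.76 in resident macrophage-like, -1.55 in Ccr2 macrophage-like and -2.50 in erythroid-like cells (6 against 26 UMIs), and 2.27 in VSMC-like, 1.01 in neutrophil-like and 1.46 in cDC2-like cells. The erythroid-like value turned to 0.49 under the stricter gate and 0.72 after thinning, and the cDC2-like value fell to 0.62 after thinning. For Csf2rb it was 2.54 in LMC-like and 1.92 in VSMC-like cells, and -0.68 in neutrophil-like and -0.64 in Ear2 phagocyte-like cells.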

How the results depend on the processing

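No paired analysis was possible for TNF-Tg over WT because each condition has 1 library. Of 366 alternative values of the log2 ratios, 319 stayed within the spread, 39 moved and 8 reversed. Only ratios past 1.5-fold could be labelled reversed. A turned sign in a smaller ratio was counted as within the spread or as moved. Csf3r in LMC-like cells, for example, went from 0.25 to -0.50 without stromal cells with a leukocyte UMI. Csf1 in VSMC-like cells (-0.60) gave -0.55 without stromal cells with a leukocyte UMI, which is under 1.5-fold. Csf1 in LMC-like cells (-0.28) gave -0.38 with TMM, -0.21 as a mean over cells, -0.20 thinned and -0.21 without stromal cells with a leukocyte UMI. Csf1r in resident macrophage-like cells (-0.76) gave -0.93, -0.48 and -0.53 under the first 3 of these, and in Ccr2 macrophage-like cells (-1.55) -1.44 under the stricter gate, -1.45 as a mean over cells and -1.39 thinned. Reversed were Csf1 in resident macrophage-like cells (-0.33 without doublets, -0.011 by clusters), Csf3r in Ccr2 macrophage-like (0.078 thinned), Kitl in Ear2 phagocyte-like (-0.15 as a mean over cells), Csf2rb in mast cell-like (-0.39 by clusters, -0.23 with TMM) and Csf1r in erythroid-like cells (0.49 under the stricter gate, 0.72 thinned). Csf2rb in LMC-like cells (2.54) ranged from 0.64 thinned to 3.82 without leukocyte UMIs. The resident share of WT was 17.9% under the stricter gate. Csf1 per resident macrophage (1.31-fold) became 1.11-fold under the stricter gate and 1.38-fold by clusters, and per phagocyte (0.437-fold) 0.395-fold and 0.499-fold. The stricter gate put 82.0% (WT) and 63.7% (TNF-Tg) of Csf1 UMIs in stromal cells and 67.6% and 63.2% of Csf1r UMIs in the phagocytes. As libraries were left out, members called ranged from 1 to 2 for LMC-like over VSMC-like (1 without WT) and for inflammatory monocyte-like over resident macrophage-like (1 without WT and without TNF-Tg), and from 4 to 6 for neutrophil-like over resident macrophage-like cells (4 without WT, 5 without tdTomato 2). The monocyte count was 1 without the replicate block and under the stricter gate and 3 with no filter on low counts, and the neutrophil count 5 without the replicate block. Without the replicate block the calls over all genes fell from 403 higher and 421 lower to 186 and 215 for LMC-like over VSMC-like. DESeq2 gave 244 higher and 140 lower there, and 1294 and 3487 for stromal over resident macrophage-like cells, where edgeR gave 2716 and 2203. It gave 111 and 504 for Ccr2 over resident (edgeR 238 and 348), 406 and 3700 for inflammatory monocyte-like over resident (1173 and 1303) and 1413 and 3381 for neutrophil-like over resident macrophage-like cells (2036 and 2648). Kitl, stromal over resident, lost its call with DESeq2 (0.69, adjusted p = 0.178). The causes of these changes were not tested. Depth limits Il34 and every class under 20 UMIs.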

Other observations

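The tdTomato transcript, listed for 3 libraries, was seen in 86 cells of tdTomato 2 (118 UMIs) and in 0 cells of WT and TNF-Tg. Csf3, the G-CSF gene, was seen in the endothelial-like cells of tdTomato 1 at 59.9 CPM and at 0.718 CPM or less in every other class and library with 10 or more cells. Il6 stood at 330 CPM in the basophil-like cells of TNF-Tg, which also held Csf1 and Csf2rb.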
